A study of Mus musculus with 6 samples.

Results

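Apob, Apoa1, Apoa4, Apoc2, Apoc3, Mttp, Sar1b, Cd36, Fabp1 and Fabp2 are genes by which the small intestine takes up fat and packs it into chylomicrons. They were chosen by name, and 9 of the 10 had a probe set whose annotation gave that gene symbol alone, out of 19938 genes tested. Apoc2, the activator of lipoprotein lipase, had only a probe set annotated to several genes and was not analysed here. Each of the other 9 had 1 probe set, so no choice between probe sets was needed.

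The tissue was mucosa scraped from the jejunum of mice on a C57/BL background, 8 to 10 weeks old and fed regular chow. One group was the transgenic line ISR2, with intestinal overactivity of SREBP2, and the other was its wild type littermates, with 3 arrays each. SREBP2, encoded by Srebf2, is the transcription factor that raises cholesterol synthesis and LDL uptake when cells lack sterol. Neither the construct nor the promoter that drives it is named by the labels, and whether every array stands for its own mouse is not stated, so p-values describe the spread among these arrays, which may be technical. Srebf2 itself had log2 values of 11.02, 10.85 and 11.16 in the ISR2 arrays, against 9.04, 9.15 and 9.50 in the wild type arrays.

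Enterocytes absorb fatty acids and monoglycerides, rebuild triglyceride in the endoplasmic reticulum and load it onto apolipoprotein B with the help of the microsomal triglyceride transfer protein. The particles leave the endoplasmic reticulum in carriers built by the COPII coat, gain apolipoproteins such as ApoA-I, ApoA-IV and the C apolipoproteins, and enter the lymph as chylomicrons. The fatty acid binding proteins of the cytosol carry the absorbed lipid on its way.

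Of the 9 genes, only Apoc3 passed the test across all genes (limma, Benjamini-Hochberg adjusted p under 0.05): it fell to 30.4% of its wild type level in ISR2 jejunum. Apoa1 and Apoa4, which lie on either side of Apoc3 in the genome, and Apob were lower by smaller amounts without passing, while Mttp, Fabp1 and Fabp2 differed by less than 0.15 on the log2 scale. Sar1b and Cd36 had overlapping groups, with SDs of 0.55 and 0.52 among the ISR2 arrays and 0.38 and 0.31 among the wild type arrays. For comparison, 3.02% of all genes tested passed in either direction, 1.23% of them lower and 1.79% higher in ISR2. The ISR2 mean was below the wild type mean for 8 of the 9 genes, with a median log2 difference of -0.33 over the 9. Over all genes tested 62.6% were below, with a median of -0.06.

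**Figure D1:**
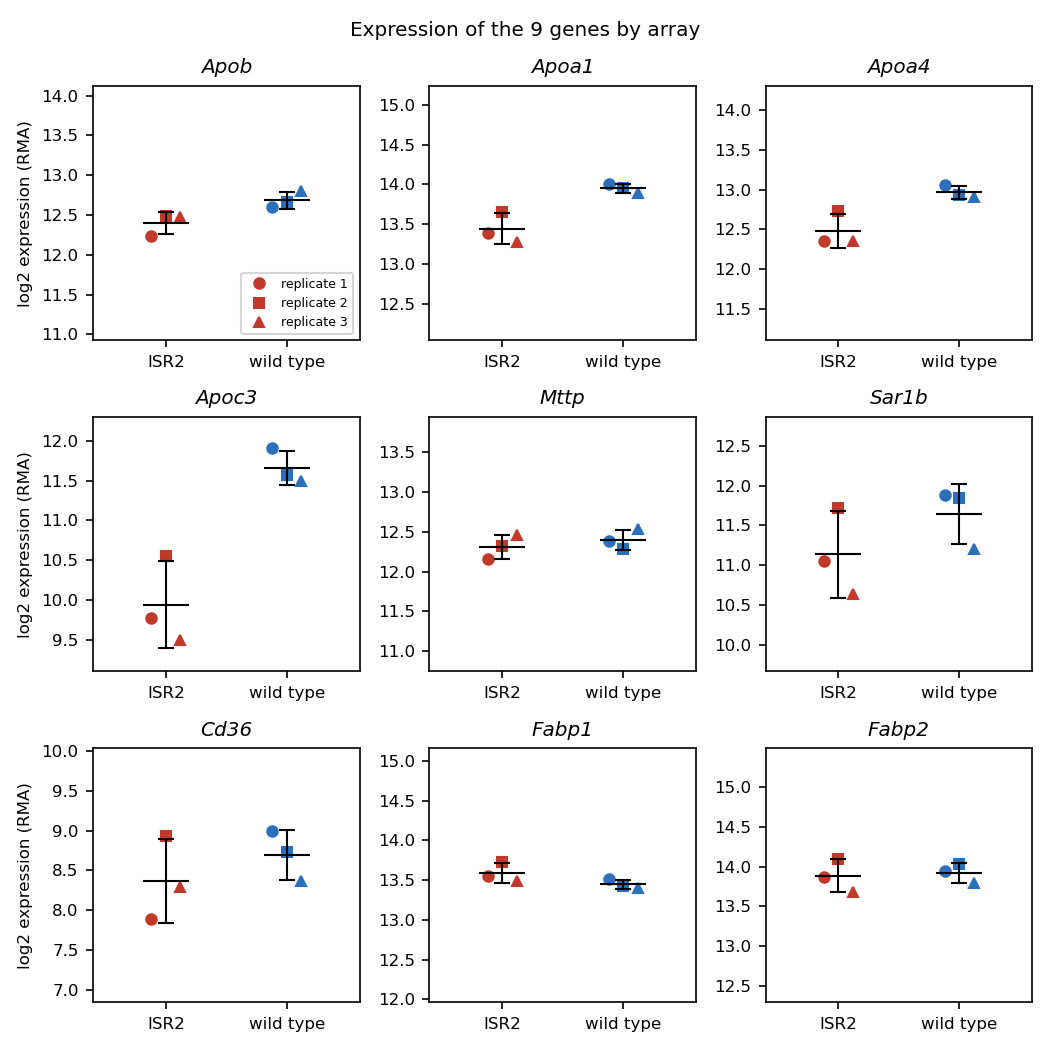
Log2 expression (RMA) of the 9 genes in each array, ISR2 at the left and wild type at the right of each panel; symbols mark the replicate number, and the bar and whiskers give the mean and SD of 3 arrays. All panels span the same log2 range, and the groups lie apart for Apob, Apoa1, Apoa4 and Apoc3, with the widest gap for Apoc3.

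Apoc3 encodes an apolipoprotein of triglyceride-rich particles that inhibits lipoprotein lipase and slows the clearance of particle remnants. Its log2 values were 9.78, 10.55 and 9.49 in ISR2 replicates 1, 2 and 3, against 11.91, 11.57 and 11.50 in wild type replicates 1, 2 and 3. The highest ISR2 array, replicate 2, lay 0.95 below the lowest wild type array. The mean was 9.94 ± 0.55 in ISR2 and 11.66 ± 0.22 in wild type (SD, n = 3 arrays each). The log2 difference was -1.72 ± 0.25 (SE; 95% interval -2.29 to -1.15; limma adjusted p = 0.00585), a 3.29-fold lower level in ISR2. In the fits with 1 array left out the difference ran between -2.02 and -1.50, and the adjusted p between 0.000377 and 0.043, so the gene passed in all 6 of them.

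Apoa1 encodes the main protein of HDL, which the intestine makes along with the liver. It had log2 values of 13.39, 13.65 and 13.27 in the ISR2 replicates, against 14.00, 13.95 and 13.89 in the wild type replicates. Every ISR2 array was below every wild type array, and the SD was 0.19 in ISR2 and 0.05 in wild type. The difference of -0.51 ± 0.14 (SE; 95% interval -0.82 to -0.20), or 70.3% of the wild type level, did not pass over all genes (limma adjusted p = 0.108).

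Apoa4, a lipid-binding apolipoprotein that in mice is made chiefly by the small intestine and rises with fat absorption, showed nearly the same pattern. Its log2 values were 12.36, 12.73 and 12.35 in the ISR2 replicates, against 13.05, 12.94 and 12.90 in the wild type replicates. The groups did not overlap here either, and replicate 2 was again the ISR2 array nearest to wild type. The difference was -0.49 ± 0.14 (SE; 95% interval -0.81 to -0.16; limma adjusted p = 0.147). At an unadjusted p of 0.05, which 13.1% of all genes tested reached, 3 of the 9 genes would pass, Apoa1, Apoa4 and Apoc3. Both Apoa1 and Apoa4 passed once ISR2 replicate 2 was left out, at -0.62 and -0.61 (limma adjusted p = 0.0438 and 0.0449). They also passed with array weights that limma estimated from these same values (limma adjusted p = 0.0135 for both). Those weights were 4.06, 0.40 and 0.67 for ISR2 replicates 1, 2 and 3, so that fit rested mainly on 1 ISR2 array. With an intensity trend in the variance Apoa1 passed (limma adjusted p = 0.0428) and Apoa4 did not (0.0837), and neither passed without any other single array.

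Apob encodes the structural protein of chylomicrons, which in the intestine is the shorter form made by editing of its mRNA. Its log2 values were 12.24, 12.49 and 12.47 in the ISR2 replicates, against 12.60, 12.66 and 12.81 in the wild type replicates. The groups were separate by a narrow gap of 0.11. The difference of -0.29 ± 0.13 (SE; 95% interval -0.58 to 0.01; limma adjusted p = 0.403) did not pass. A probe set signal of this kind does not tell the edited and unedited mRNA apart.

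In all, 4 of the 9 genes, Apob, Apoa1, Apoa4 and Apoc3, had groups that did not overlap, and in each ISR2 was the lower group. Such separation held for 19.8% of all genes tested, and for 13.9% with ISR2 lower. Of 12 further measured genes listed as apolipoproteins, 0 had separate groups. Their wild type means ran from 4.44 (Apoc1) to 6.92 (Apool), apart from Apoe at 9.99, against 11.66 (Apoc3) to 13.95 (Apoa1) for the 4 genes. Low signals may lie near background, so these 2 counts are not on equal terms. In bulk mucosa, fewer enterocytes and less RNA per enterocyte cannot be told apart.

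**Figure D2:**
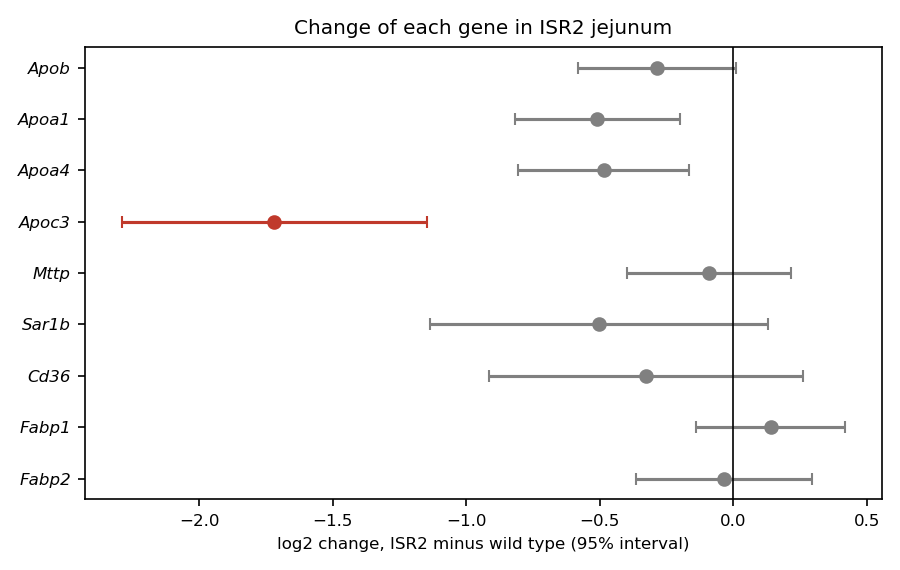
Log2 change (ISR2 minus wild type, horizontal axis) of each of the 9 genes with its 95% interval from limma, 3 arrays per group; red marks an adjusted p under 0.05 over all genes. Apoc3 stands at -1.72, the intervals of Apoa1 and Apoa4 lie below 0, and the other 6 intervals include 0.

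Within single arrays, Apoc3 was set against the other apolipoprotein genes. The log2 difference between Apoc3 and Apoa1 within an array was -3.62, -3.10 and -3.78 in the ISR2 replicates, against -2.09, -2.38 and -2.39 in the wild type replicates. These groups did not overlap, and their means differed by -1.21. The same contrast was -1.23 for Apoc3 against Apoa4 and -1.43 for Apoc3 against Apob, with separate groups in both. An exact two-sided permutation test gave p = 0.1 for each of the 3 pairs, also after adjustment over the 3, which is the smallest p that 3 arrays against 3 allow. The pairs were chosen with the differences of these genes already known.

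Among protein-coding genes of the RefSeq annotation of GRCm38.p6, Apoa1, Apoc3, Apoa4 and Apoa5 follow one another on chromosome 9, between Sik3 and Zpr1. Apoa5, an activator of plasma triglyceride clearance known from the liver, had values of 5.77, 5.41 and 5.86 in the ISR2 replicates, against 5.70, 5.02 and 5.29 in the wild type replicates, and the groups overlapped. It differed by 0.34 ± 0.19 (SE; limma adjusted p = 0.525), opposite in sign to the other 3 genes of the cluster. Its wild type mean was low, at percentile 27.1 of all genes tested, and may lie near background. Sik3, a kinase, differed by -0.08 (limma adjusted p = 0.855) and Zpr1, a zinc finger protein gene, by 0.19 (limma adjusted p = 0.81). Neither flanking gene passed.

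The genes with the most similar profile were sought in the whole table, by the root mean square difference over the 6 arrays after each gene was centred on its mean, for Apoc3 and for Apoa1, the 2 genes with the smallest p. For Apoa1 the nearest of the other 19937 genes was Apoa4, at a difference of 0.0439 on the log2 scale, where the median over all genes was 0.30. Pcx, the pyruvate carboxylase gene, was almost as near, at 0.0457. Upp1, a uridine phosphorylase gene, came next at 0.0528. For Apoc3 the nearest were Sectm1b at 0.13, Podn, which encodes a small leucine-rich proteoglycan, at 0.17 and Rdh9, a retinol dehydrogenase family gene, at 0.18, where the median over all genes was 0.91.

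The bases before the transcription start of Apoa1, Apoa4 and Apob are shown because these are genes whose groups did not overlap. Those of Fabp2 are shown as 1 example of a gene whose groups did overlap. Mttp, Sar1b, Cd36 and Fabp1 had overlapping groups as well, and their bases are not printed. The sequences are the 250 bases before the RefSeq start in GRCm38.p6, 5′ to 3′ on the strand of the gene, at chr9:46228380-46228629 (plus strand) for Apoa1, chr9:46240594-46240843 (plus) for Apoa4, chr12:7977427-7977676 (plus) for Apob and chr3:122894822-122895071 (plus) for Fabp2. Capitals mark matches, on either strand, to CAAAGNNCA, a loose form of the element bound by HNF4 factors, and to CCAAT, the box bound by NF-Y.
Apoa1: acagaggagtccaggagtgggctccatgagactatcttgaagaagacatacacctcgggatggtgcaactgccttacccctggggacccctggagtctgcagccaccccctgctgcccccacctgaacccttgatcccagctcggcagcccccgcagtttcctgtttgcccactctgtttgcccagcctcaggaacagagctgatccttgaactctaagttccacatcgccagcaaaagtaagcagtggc
Apoa4: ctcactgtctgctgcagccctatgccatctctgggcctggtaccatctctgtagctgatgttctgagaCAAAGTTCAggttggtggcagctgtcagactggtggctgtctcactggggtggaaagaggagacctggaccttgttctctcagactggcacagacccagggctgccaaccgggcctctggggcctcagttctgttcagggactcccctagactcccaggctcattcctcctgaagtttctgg
Apob: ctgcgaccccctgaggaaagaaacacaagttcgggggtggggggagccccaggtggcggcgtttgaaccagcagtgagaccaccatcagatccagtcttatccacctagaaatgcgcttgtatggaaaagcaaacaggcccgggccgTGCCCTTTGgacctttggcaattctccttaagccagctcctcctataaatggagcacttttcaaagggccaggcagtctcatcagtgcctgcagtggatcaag
Fabp2: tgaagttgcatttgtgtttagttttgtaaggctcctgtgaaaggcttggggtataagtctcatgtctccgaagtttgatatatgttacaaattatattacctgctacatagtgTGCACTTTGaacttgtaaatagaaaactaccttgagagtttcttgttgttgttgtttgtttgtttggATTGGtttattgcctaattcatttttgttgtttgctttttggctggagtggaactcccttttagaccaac

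Such windows were found for 9 of the 10 genes, Apoc2 included and Apoc3 not. The HNF4-type letters occurred in 3 of the 9 windows, those of Apoa4 (182 to 174 bases before the start), Apob (103 to 95 bases) and Fabp2 (137 to 129 bases), and in 5.49% of all 32851 windows of this length. TCACNCCAC, a form of the sterol regulatory element through which SREBP factors act, occurred in 0 of the 9 and in 1.05% of all windows. CCAAT occurred in 3 of the 9, Sar1b, Cd36 and Fabp2, and in 33.8% of all windows. No 2 of the matches overlapped. The HNF4-type letters were present in windows of genes with separate groups (Apoa4, Apob) and of one with overlapping groups (Fabp2). They were absent from the window of Apoa1, whose groups were separate. The letters were also absent from those of Mttp, Sar1b, Cd36 and Fabp1, whose groups overlapped, and from that of Apoc2. Whether the letters go with the differences was not tested. Fixed letters can miss sites that a factor binds, so a window without a match, that of Apoa1 included, may still hold a site.

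The 2 genes of particle assembly and exit did not pass. Mttp encodes the microsomal triglyceride transfer protein, which loads lipid onto apolipoprotein B. Its log2 values were 12.16, 12.32 and 12.46 in the ISR2 replicates, against 12.39, 12.29 and 12.54 in the wild type replicates. The groups overlapped, and the difference was -0.09 ± 0.14 (SE; limma adjusted p = 0.852). Its 95% interval ran from 0.759-fold to 1.16-fold of the wild type level.

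Sar1b encodes the small GTPase that starts COPII coat assembly, and its loss causes chylomicron retention disease in humans. Its log2 values were 11.05, 11.72 and 10.64 in the ISR2 replicates, against 11.88, 11.84 and 11.20 in the wild type replicates. Replicate 2 of ISR2 lay within the wild type range, and replicate 3 was the lowest array of each group. The difference of -0.50 ± 0.28 (SE; 95% interval -1.14 to 0.13; limma adjusted p = 0.514) was close to that of Apoa1, with a larger error. Without 1 array at a time it ran from -0.80 (without ISR2 replicate 2) to -0.25 (without ISR2 replicate 3), and it passed in none of these 6 fits. With wild type replicate 3 and ISR2 replicate 2 both left out, a choice made after seeing the data, it was -1.02 (limma adjusted p = 0.0194). Its paralog Sar1a differed by -0.09 ± 0.12 (SE; limma adjusted p = 0.833).

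The 3 genes of fat uptake and cytosolic transport did not pass either. Cd36 encodes a membrane receptor that takes up long-chain fatty acids. It had log2 values of 7.89, 8.93 and 8.28 in the ISR2 replicates, against 8.99, 8.72 and 8.36 in the wild type replicates. The groups overlapped, since ISR2 replicate 2 was above 2 of the wild type arrays. The difference was -0.33 ± 0.26 (SE; 95% interval -0.91 to 0.26; limma adjusted p = 0.68). Leaving out ISR2 replicate 1 gave -0.09, ISR2 replicate 2 gave -0.61 and wild type replicate 1 gave -0.18, the gene passing in none of the 6 fits without 1 array.

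Fabp1, the liver-type fatty acid binding protein, which enterocytes also make in quantity, was the only one of the 9 genes with a higher mean in ISR2. Its log2 values were 13.55, 13.72 and 13.49 in the ISR2 replicates, against 13.51, 13.43 and 13.40 in the wild type replicates. The lowest ISR2 array was just below the highest wild type array. The difference was 0.14 ± 0.12 (SE; limma adjusted p = 0.715), with a 95% interval from 0.908-fold to 1.34-fold.

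Fabp2, the intestinal fatty acid binding protein, had log2 values of 13.87, 14.10 and 13.68 in the ISR2 replicates, against 13.94, 14.03 and 13.79 in the wild type replicates. The groups overlapped. The difference was -0.03 ± 0.15 (SE; limma adjusted p = 0.957), with a 95% interval from 0.778-fold to 1.23-fold. Its sign turned when arrays were centred on their medians (0.01) or quantile-normalized again (0.07).

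The ISR2 arrays were not alike for these genes. Replicate 2 was the highest ISR2 array for 8 of the 9, with Mttp as the exception, and replicate 3 was the lowest for 6. Among wild type arrays, replicate 1 was the highest for 6 genes and replicate 3 the lowest for 7. The SD was larger in ISR2 than in wild type for 9 of the 9 genes (0.12 to 0.55 in ISR2 and 0.05 to 0.38 in wild type), against 57.5% of all genes tested.

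**Figure D3:**
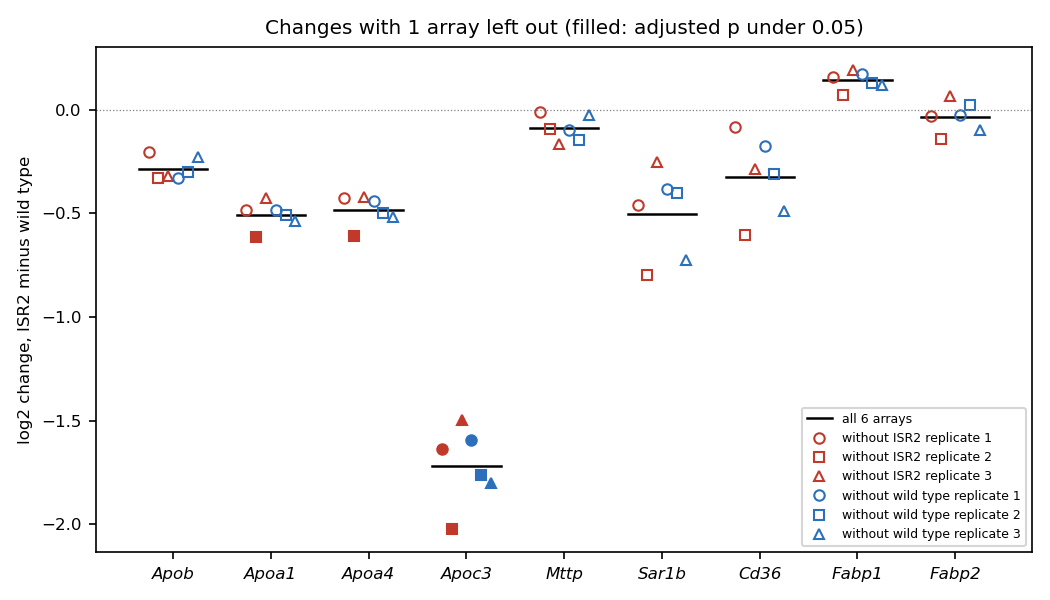
Log2 change (ISR2 minus wild type) of each gene with all 6 arrays (black line) and with 1 array left out (symbols; red for an ISR2 array, blue for a wild type array); filled symbols passed an adjusted p of 0.05. Apoc3 is filled throughout, between -2.02 and -1.50, and Apoa1 and Apoa4 only without ISR2 replicate 2.

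Levels of cell type markers were read beside these values, and their part in the differences was not tested. The enterocyte markers were present, with mean log2 levels over 10 genes of 11.79 to 12.01 in ISR2 arrays and 12.20 to 12.27 in wild type arrays; 8 of the 10 were lower in ISR2 and 2, Treh and Alpi, fell. Of 6 genes known from the upper villus, all lower in ISR2, 4 fell (Nt5e, Slc28a2, Enpp3 and Ada). Their mean was 7.90, 8.76 and 7.34 in ISR2 replicates 1, 2 and 3, against 10.18, 10.19 and 9.97 in the wild type replicates. Replicate 2 was thus the highest and replicate 3 the lowest ISR2 array, as for Apoc3. Not every gene of the list had this order. In ISR2 replicates 1, 2 and 3, Egfr had 7.38, 7.16 and 7.54, and Klf4 had 9.75, 9.74 and 9.47. The enterocyte mean was 11.79, 11.94 and 12.01 in the same replicates, with replicate 3 the highest. T cell markers were lower as well, at a mean of 6.61 to 7.11 in ISR2 and 7.66 to 8.15 in wild type. Of the 6 T cell genes measured, 5 fell. The T cell mean was 7.02, 7.11 and 6.61 in ISR2 replicates 1, 2 and 3, in the same order as Apoc3. All 6 goblet and Paneth cell markers measured also had a lower mean in ISR2, and 0 fell. Over all genes tested 1.23% fell and 62.6% had a lower mean in ISR2.

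Cd36 is also made by adipocytes, endothelial cells and macrophages. The mean of 7 adipocyte markers measured was 6.21 to 7.14 in ISR2 and 6.48 to 6.71 in wild type, with ISR2 replicate 2 the highest of the 6 arrays. For Cd36 that replicate was the highest ISR2 array but below wild type replicate 1. Of the 7 markers, 4 had a higher mean in ISR2 and 3 a lower one, without passing. Cidec (-0.74, limma adjusted p = 0.0515) and Lipe (-0.49, limma adjusted p = 0.0675) were lower with separate groups. The mean of 8 endothelial markers was 6.20 to 7.17 in ISR2 and 6.27 to 6.51 in wild type, with ISR2 replicate 2 the lowest. The mean of 8 macrophage markers was 6.79 to 7.50 in ISR2 and 7.21 to 7.58 in wild type. Of these 8, Cd14 rose (limma adjusted p = 0.00223) and the other 7 had a lower mean in ISR2 without passing. Smooth muscle markers stood at 10.17 in replicate 2 of ISR2 and 11.02 in replicate 2 of wild type, and between 7.26 and 7.95 in the other 4 arrays. Hepatocyte markers, including Alb, had means of 4.91 to 4.92 in ISR2 and 4.86 to 5.16 in wild type over 6 genes. No value used here tells which of these low levels lie above background, and this array scale has no true 0.

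Other genes of the pathway, 91 measured in 7 lists, held 3 rises and 3 falls, and 66 of the 91 had a lower mean in ISR2, with a median log2 difference of -0.13. Over all genes tested, 3.02% passed, 62.6% had a lower mean in ISR2 and the median was -0.06. An unadjusted p under 0.05 was reached by 13.1% of all genes tested. The counts of each list given below are to be read beside these shares. In the list of triglyceride resynthesis and fatty acid activation, 1 of 13 rose and 2 fell, with a median of -0.24. Slc27a4, a fatty acid transport protein with acyl-CoA synthetase activity, had 10.92, 10.95 and 10.89 in the ISR2 replicates, against 11.62, 11.52 and 11.57 in the wild type replicates. Dgat2, which makes triglyceride from diglyceride, had 10.91, 11.40 and 11.00 in ISR2, against 11.72, 11.94 and 11.77 in wild type. Both fell (limma adjusted p = 0.0165 and 0.0494), but each passed in only 1 of the 6 fits without 1 array, that without ISR2 replicate 2. Lpcat3, which remodels membrane phospholipids and supports lipid loading in the mouse intestine, rose, at 11.95, 12.00 and 12.08 in ISR2 against 11.21, 11.05 and 11.32 in wild type (limma adjusted p = 0.00788). Gpat4, a glycerol-3-phosphate acyltransferase gene, differed by 0.50 ± 0.14 without passing (SE; limma adjusted p = 0.112). Mogat2, the monoglyceride acyltransferase of the enterocyte, and Dgat1 did not pass, at -0.37 and -0.14.

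None of the 18 genes of the COPII coat and ER exit passed in limma (5 at an unadjusted p of 0.05), and 14 of them had a lower mean in ISR2, with a median of -0.20. The smallest p-values were those of Sec13, a subunit of the outer coat, at -0.50 ± 0.14 (SE; limma adjusted p = 0.135), Sec16b, an organiser of ER exit sites, at -0.39, Sec24d, a cargo-binding subunit, at -0.38 and Tfg, which organises coated carriers, at -0.35. Surf4, a cargo receptor that helps export lipoproteins in mouse liver, was at -0.16 (limma adjusted p = 0.683).

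None of the 9 assembly helpers and apoB editing genes passed in limma (1 at an unadjusted p of 0.05), with a median of -0.11. Prap1, a lipid-binding secreted protein of the mouse intestine, was at -0.46 ± 0.15 (SE; limma adjusted p = 0.217) and Tm6sf2, an ER protein of lipoprotein lipidation, at -0.13. Pla2g12b, which is needed for triglyceride-rich particle secretion in mice, had 10.01, 10.61 and 9.58 in the ISR2 replicates, against 10.88, 10.59 and 10.21 in the wild type replicates, an overlapping pattern with replicate 2 the highest ISR2 array. A1cf, a partner of the editing enzyme, was at 0.16 and Apobec1, the editing enzyme itself, at -0.11, neither passing.

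Among 12 other genes listed as apolipoproteins and 10 listed with the other fatty acid binding proteins, 0 passed in limma (1 and 1 at an unadjusted p of 0.05). The medians were -0.15 and -0.09. The 10 included Dbi and the retinol binding protein gene Rbp2. Apon was at -0.60 ± 0.25, Clu, the apolipoprotein J gene, at -0.36 and Apom at -0.22, with Apoa5 described above (limma adjusted p from 0.35 to 0.593 over these 4). Fabp5 was at 0.33 ± 0.14 (SE), Dbi, the acyl-CoA binding protein gene, at 0.37, Fabp6, the ileal bile acid binding protein gene, at -0.26 and Fabp7 at -0.39 (limma adjusted p from 0.358 to 0.652).

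None of 20 transcription factors and coactivators of enterocyte lipid genes passed in limma (4 at an unadjusted p of 0.05; median -0.12). Hnf4a and Hnf4g, receptors that drive apolipoprotein genes in the intestine and liver, differed by 0.15 ± 0.12 and -0.27 ± 0.12 (SE; limma adjusted p = 0.666 and 0.394). The smallest p-values were those of Ppara, a fatty acid receptor, at 0.48 ± 0.13 (SE; limma adjusted p = 0.111), Nr1h3, the oxysterol receptor LXR alpha, at -0.47, the coactivator Ppargc1a at -0.55 and Ppard at -0.38. Each of these 4 genes had groups that did not overlap, which held for 8 of the 20 and for 19.8% of all genes tested. The 4 were picked by p, so their separation adds nothing to those p-values. Creb3l3, which in mouse drives several apolipoprotein genes, was at -0.10 (limma adjusted p = 0.854).

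In the list of peripheral lipoprotein handling, 2 of 9 genes rose, Pltp and Scarb1, and 1 fell, Angptl4. Angptl4, like Apoc3 an inhibitor of lipoprotein lipase, had 6.53, 6.28 and 6.54 in the ISR2 replicates, against 7.30, 7.71 and 7.55 in the wild type replicates (limma adjusted p = 0.00431). The phospholipid transfer protein gene Pltp had 9.78, 9.97 and 9.81 in ISR2, against 7.01, 7.12 and 7.17 in wild type. Scarb1, the HDL receptor gene, had 7.82, 8.07 and 8.11 in ISR2, against 7.21, 6.86 and 6.65 in wild type. These 3 passed in all 6 fits without 1 array. Lrp1, a remnant receptor gene, was at 0.21 (limma adjusted p = 0.548).

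**Figure D4:**
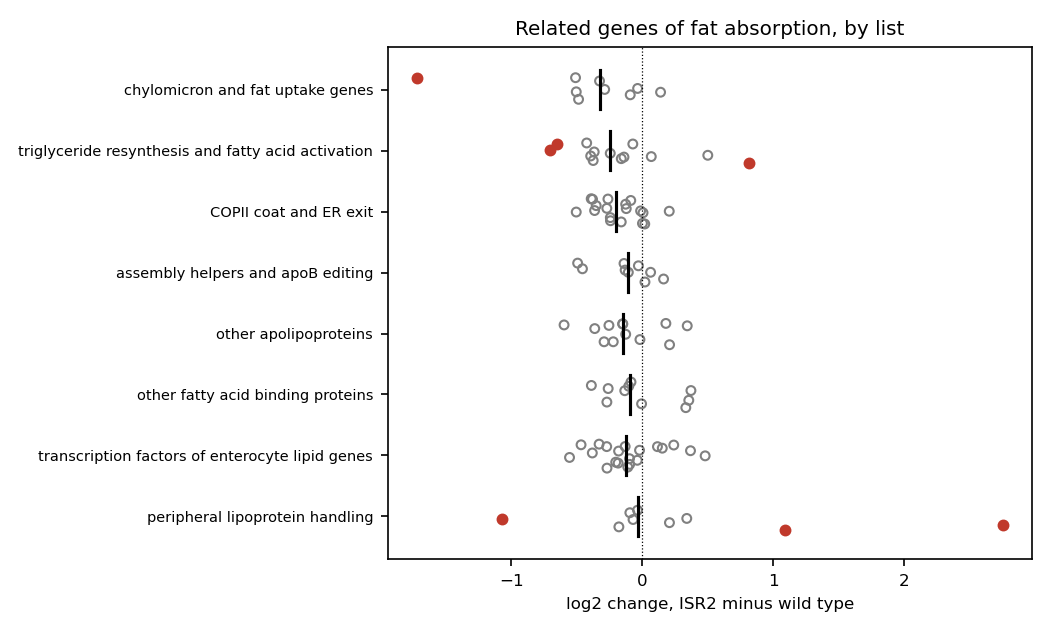
Log2 change (ISR2 minus wild type, horizontal axis) of the 9 genes (top) and of 7 lists of related genes; red points passed an adjusted p of 0.05 over all genes, open points did not, and the black bar is the median of the list. The medians run from -0.33 for the 9 genes to -0.04 for peripheral lipoprotein handling.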

How the data were processed

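Total RNA was labelled with biotin and hybridised, per the labels' protocols, to Affymetrix whole-transcript arrays, 3 for ISR2 and 3 for wild type. RMA, named in the submitters' processing notes with no version, gave the deposited log2 values. RMA equalises the arrays' probe distributions, so a change common to most genes is largely taken out; a small shared shift was left, with a median log2 difference of -0.06 over all genes and -0.02 after median centring. No background or saturation flag was used. Medians of the 6 arrays lay between 6.04 and 6.19, and the number of arrays limits the precision.

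Of 35556 rows, 21789 had 1 gene symbol in the array annotation. The row with the highest mean was kept for each gene, giving 19938 genes. Groups came from sample titles. ISR2 was set against wild type with lmFit and eBayes of limma 3.58.1 (R 4.3.3), without covariates, with Benjamini-Hochberg adjustment over all genes (threshold 0.05); intervals are 95%. The steps were tested on simulated data. Genes named were the 10 genes, up to 4 of each related list by p, those nearest in pattern, Srebf2, and markers given with their lists; Sik3, Zpr1, Mogat2, Dgat1, Surf4, Apobec1, Sar1a, Hnf4a, Hnf4g and Creb3l3 were named for their roles, outside that rule and with their values seen. The genes and lists were chosen with earlier results of these data known. Deviations of same-numbered arrays correlated across genes with r of -0.02, 0.32 and 0.54 for numbers 1, 2 and 3. Arrays of unlike number gave r of -0.54 to 0.20, so a structure shared by number is possible. The labels name no pairs and the main fit took none, and a fit with the number as a block was run as an alternative. Alternatives are given in the closing section. Figures used matplotlib 3.10.9 and promoter sequences came from RefSeq (GRCm38.p6).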

Additional observations from a re-analysis of the deposited data

How the results depend on the processing

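Apoc3 passed under all 16 alternatives run for it, at -2.10 to -1.50 (limma adjusted p 0.000178 to 0.043). Of the 9 genes, 2 passed as lower with an intensity trend, where Apoa1 was added, and 3 with array weights, where Apoa1 and Apoa4 were added. Without 1 array at a time 1 to 3 of the 9 passed, and 2, Apoc3 and Sar1b, without the third wild type and second ISR2 arrays together. None of the 9 passed as higher under any alternative. Fabp2 was at 0.0106 after median centring, 0.0689 after quantile normalization, and -0.141 to 0.0654 without 1 array at a time. The replicate number as a block left 1 of the 9 genes passing; with it 352 genes fell and 426 rose over the array, against 246 and 356 without it. Over all genes, 638 fell and 630 rose with array weights, in which ISR2 replicate 1 weighed most. At a threshold of 0.10, 386 genes fell, and 404 by a rule of raw p under 0.05 plus 1.5-fold. With all rows tested, 106 of the 35556 rows fell, a count of rows rather than of genes. Without 1 array at a time 85 to 236 fell and 236 to 353 rose; the lowest count of falls, 85, came without wild type replicate 1. Among the 91 related genes, 3 fell in the fit to all arrays, 9 with array weights, 1 with all rows tested, 6 without the third wild type and second ISR2 arrays, and 1 to 3 without 1 array at a time, while 3 rose throughout. The cause of these shifts was not tested. Fits that left arrays out had fewer arrays, and the fit to all rows made more tests.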
